A study of Mus musculus with 16 samples.

Results

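The comparison described here set cultured mouse hepatocytes made to lack Smpd3 against hepatocytes that kept it, both given vehicle alone. The 8 samples were the 4 FLOX and the 4 HKO samples with vehicle, out of 16 in the series, and RNA of each was sequenced after 24 h. Every gene with a transcript level of at least 1 TPM (a measure of a gene's share of all transcripts of its sample, corrected for transcript length) in at least 4 of the 16 samples was followed, which left 11858 of 55416 genes. FLOX cells had the genotype Alb-cre- and HKO cells the genotype Alb-cre+, in a cross with a loxP-flanked Smpd3. All cells were primary hepatocytes, the parenchymal cells of the liver, taken from mice and kept in culture. The other 8 samples of the series were the same genotypes with 0.4 mM palmitic acid, which is a saturated fat that the design uses to mimic steatohepatitis in vitro.

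The Cre recombinase was driven by the albumin promoter, which is active in hepatocytes. The FLOX cells carried no Cre, so the loss of Smpd3 and the presence of Cre cannot be told apart. The labels do not give the animals' age or sex, nor do they say whether the samples of a group came from separate mice or cultures. The p-values and SEs therefore rest only on the spread seen within the groups of all 16 samples, those with palmitic acid included. That spread may be technical.

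Smpd3 encodes neutral sphingomyelinase 2, a membrane enzyme that splits sphingomyelin, a major lipid of the outer plasma membrane, into ceramide and phosphocholine. Ceramide is a signalling lipid and the hub from which the other sphingolipids are made. Hepatocytes make most plasma proteins, detoxify foreign compounds with cytochromes P450 and conjugating enzymes, and divide metabolic work between the cells near the portal vein and those near the central vein. They lose part of this specialisation in culture, so each level below describes cultured cells and not the liver.

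The samples were alike in their overall profile. Between 11231 and 11405 genes reached 1 TPM in a vehicle sample, and the correlation of log2 values over genes (not independent of each other) was r = 0.981 to 0.985 for samples of 1 group, against 0.977 to 0.984 between the groups. Among the 6331 genes with a mean of at least 10 TPM the median coefficient of variation was 6.47% in FLOX and 5.94% in HKO. In FLOX replicate 1 genes with long transcripts ran high against the other FLOX samples: after ranking by length, the upper of 4 equal bins had a median 0.079 greater than the lowest bin (log2 scale), against -0.089 to -0.039 in the other 3 FLOX samples and -0.020 to 0.076 in the HKO samples. Without FLOX replicate 1, 1242 genes passed the threshold in place of 1384, and 1099 genes were shared by both sets in the same direction.

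The cells carried the marks of hepatocytes. All 17 hepatocyte markers were above the filter, and their summed level was 61087 to 61870 TPM in FLOX and 64961 to 66423 TPM in HKO. Trf alone had a mean of 13070 TPM in FLOX and 17491 TPM in HKO. Of the 17 markers 7 were higher and 3 lower, so the sum does not stand for all of them. Of 12 macrophage markers 11 stayed below 1 TPM in every FLOX sample and 10 in every HKO sample, and the sum of 49.3 to 55.7 TPM in FLOX and 61.1 to 71.0 TPM in HKO came almost wholly from Cd68, while Timd4 was listed at 0 throughout. Endothelial markers summed to 8.21 to 15.6 TPM in FLOX and 9.73 to 10.2 TPM in HKO, stellate and fibroblast markers to 15.1 to 20.1 TPM and 13.5 to 15.9 TPM, and lymphocyte and neutrophil markers to at most 0.21 TPM. Erythroid markers summed to 23.2 to 25.1 TPM in FLOX and 22.5 to 24.5 TPM in HKO. The cholangiocyte list summed to 194 to 205 TPM in FLOX and 311 to 336 TPM in HKO, mostly from Spp1, with Cftr and Tff2 listed at 0. The part of other cell types in the differences below was not tested.

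Smpd3 itself was low in every HKO sample. Its level was 37.1, 29.7, 27.8 and 33.2 TPM in FLOX replicates 1 to 4 and 4.25, 5.89, 5.54 and 5.46 TPM in HKO replicates 1 to 4. The groups lay far apart, and HKO samples held on average 16.5% of the FLOX level. The difference on the log2(TPM + 1) scale, used for every log2 difference in this text as HKO minus FLOX, was -2.39 ± 0.11 (± SE, limma adjusted p = 7.87e-10, n = 4 against 4). The file gives 1 value per gene, so which exons the remaining reads came from is not known. Of the 20 tested genes nearest to Smpd3 on its chromosome, 10 on each side, 1 was changed (Utp4, a ribosome biogenesis factor, at -0.20), against 10.7% of the tested genes of that chromosome. Of the 20 nearest to Alb, 2 were, against 9.5% of those of its chromosome.

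No other sphingomyelinase or sphingomyelin synthase passed the threshold. Of the 9 tested members of this family, Smpd3 was the 1 that did. The lysosomal acid sphingomyelinase Smpd1 stood at 26.1 ± 1.0 TPM in FLOX and 28 ± 0.91 TPM in HKO (mean ± SD, n = 4 each, as for every such pair here), and the neutral sphingomyelinases Smpd2 and Smpd4 had log2 differences of -0.17 ± 0.092 and 0.04 ± 0.11. The phosphodiesterase-like Smpdl3a stood nearest to the threshold at 0.19 ± 0.065 (limma adjusted p = 0.0730) and passed it in 4 of 18 alternatives, and Smpdl3b stood at -0.14 ± 0.12. The sphingomyelin synthases Sgms1 and Sgms2 had differences of -0.18 ± 0.11 and 0.01 ± 0.13, and the related Samd8 one of 0.02 ± 0.15.

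Among the 14 tested genes of ceramide synthesis, 2 fell and 1 rose, where 7.56% of all genes tested fell and 4.11% rose. Degs1, the desaturase that makes ceramide from dihydroceramide, fell from 114 ± 5.8 to 90.3 ± 3.4 TPM (-0.33 ± 0.043, limma adjusted p = 8.93e-05). Sptlc1, a subunit of the serine palmitoyltransferase that starts the pathway, stood at -0.26 ± 0.067 and Ormdl3, which restrains that enzyme, at 0.24 ± 0.067 (limma adjusted p = 0.0196 and 0.0287). The call of Sptlc1 was lost without replicate 1 or 4 of either genotype, and that of Ormdl3 without FLOX replicate 3 or 4 or HKO replicate 1 or 2. Of 13 genes of ceramide breakdown and sphingosine phosphate, 1 rose, the sphingosine phosphate transporter Spns2 (11.4 ± 1.1 to 14.5 ± 0.65 TPM), a call lost without FLOX replicate 3 or HKO replicate 4.

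Across all genes, 1384 of 11858 (11.7%) differed between the genotypes by limma at an adjusted p below 0.05. Of these, 487 (4.11% of genes tested) were higher in HKO and 897 (7.56%) lower. These shares are the background of every list count in this text, and a count near them says nothing particular about its list. Most differences were small: the median size among them was 0.286 on the log2 scale, 1133 were under 0.5, and 49 (0.413%) reached at least 1, 19 higher and 30 lower. A further 64 genes had a difference of at least 1 that did not pass the threshold. The 4 HKO and 4 FLOX values did not overlap for 1281 of the 1384 genes, and did not overlap for 2106 (17.8%) of all genes tested. Higher genes made up 35.2% of the calls, but 56.6% with median-ratio scaling and 51.9% with quantile normalization, so the balance between the directions depends on how the samples are centred. The median difference of all genes tested was -0.0225. Without HKO replicate 2 the higher genes numbered 321.

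**Figure D1:**
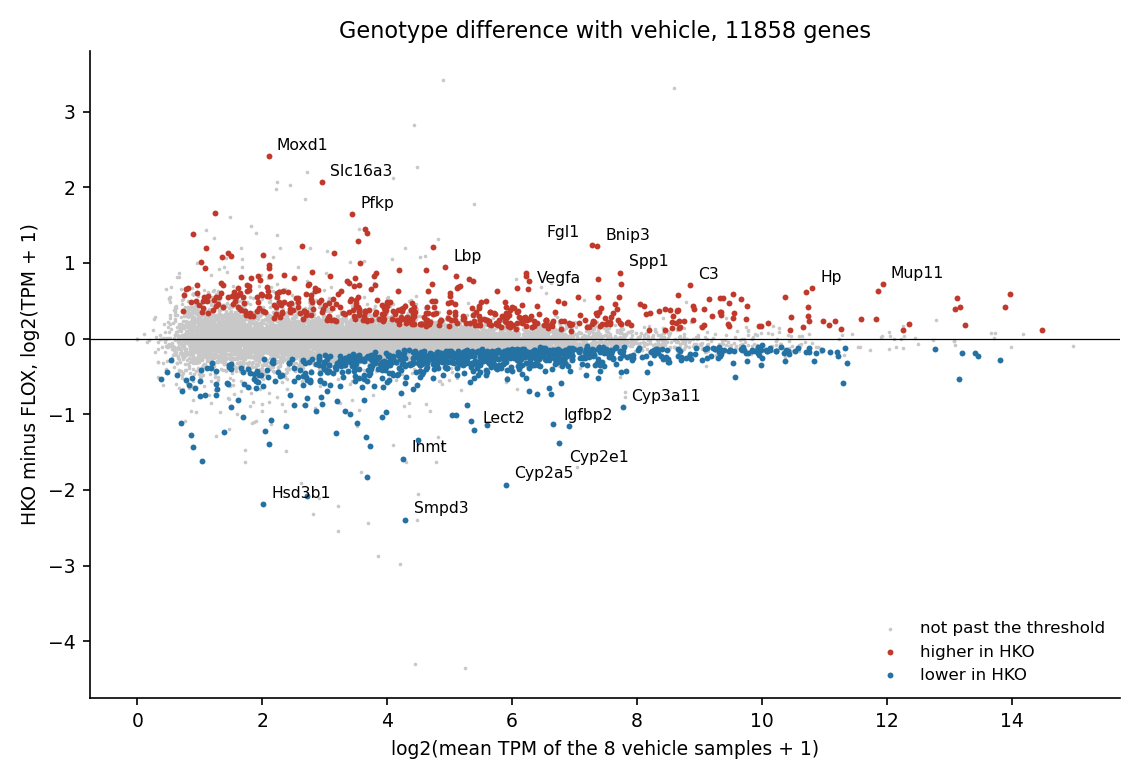
Each point is 1 of the 11858 genes tested, with its mean level in the 8 vehicle samples on the x axis (log2 of TPM + 1) and its difference HKO minus FLOX on the y axis (log2 of TPM + 1). Red and blue points are the 487 genes higher and the 897 lower in HKO at a limma adjusted p below 0.05, and grey points did not pass. Smpd3 lies at -2.39, and few coloured points lie beyond 1 in either direction.

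Hypoxia targets and glycolytic enzymes were higher in HKO cells: 19 of 25 tested members rose and none fell, with a median difference of 0.472 against -0.0225 over all genes. Bnip3, a mitochondrial receptor for mitophagy, Pfkp, the platelet isoform of phosphofructokinase, and Slc16a3, the lactate exporter MCT4 that was named by its size and is not on the list, were among the largest rises. The transcription factors that drive such genes under low oxygen, Hif1a and Epas1, did not pass the threshold, at -0.11 ± 0.11 and 0.14 ± 0.078. These 3 genes are shown with the 300 bases around their first listed transcription start (250 before, 50 after, read on the gene's strand, from RefSeq on GRCm38.p6), because their levels moved together. Capitals mark the hypoxia response core, ACGTG or GCGTG on either strand, and GCGTG is also the core of the aryl hydrocarbon receptor motif. Bnip3 lies at chr7:138909457-138909756 (minus strand), Slc16a3 at chr11:120948817-120949116 (plus strand) and Pfkp at chr13:6648722-6649021 (minus strand).
Bnip3: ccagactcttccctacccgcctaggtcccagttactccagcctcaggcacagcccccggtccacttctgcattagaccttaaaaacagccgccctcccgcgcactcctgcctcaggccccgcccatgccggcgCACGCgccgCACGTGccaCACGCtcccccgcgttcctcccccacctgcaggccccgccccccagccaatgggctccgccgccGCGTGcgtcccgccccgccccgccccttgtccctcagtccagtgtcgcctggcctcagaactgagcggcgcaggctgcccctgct
Slc16a3: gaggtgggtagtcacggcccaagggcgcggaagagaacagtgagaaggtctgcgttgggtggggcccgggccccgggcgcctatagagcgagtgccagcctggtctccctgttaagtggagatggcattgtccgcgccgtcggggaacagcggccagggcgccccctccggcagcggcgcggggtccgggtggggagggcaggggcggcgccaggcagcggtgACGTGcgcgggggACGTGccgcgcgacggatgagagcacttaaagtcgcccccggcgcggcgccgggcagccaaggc
Pfkp: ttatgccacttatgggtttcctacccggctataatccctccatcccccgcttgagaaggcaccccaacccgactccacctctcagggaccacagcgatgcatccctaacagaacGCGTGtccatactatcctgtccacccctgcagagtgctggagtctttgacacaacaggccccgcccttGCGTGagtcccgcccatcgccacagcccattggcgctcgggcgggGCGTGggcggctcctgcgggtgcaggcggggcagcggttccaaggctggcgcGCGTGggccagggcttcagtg

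The windows held 5, 2 and 4 matches. The core is short and common: it was in 19 of 23 promoters of the hypoxia list (82.6%) and in 64.1% of the 8887 promoters of tested genes. A match describes the letters alone, and base composition was not matched between the sets.

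Bnip3 stood at 102, 100, 98.5 and 91.9 TPM in the FLOX replicates and at 223, 244, 232 and 222 TPM in the HKO replicates. Every HKO sample was more than 100 TPM above every FLOX sample (2.35-fold by the means, log2 difference 1.22 ± 0.18, limma adjusted p = 0.000257). Pfkp stood at 3.79, 4.41, 4.28 and 4.49 TPM in FLOX and at 14.2, 18.5, 16.4 and 12.99 TPM in HKO. All 4 HKO values were above all FLOX values (1.65 ± 0.18, limma adjusted p = 1.44e-05). Slc16a3 was near the detection filter in FLOX, at 1.59, 2.46, 2.08 and 1.74 TPM, and at 9.88, 13.6, 12.1 and 10.4 TPM in HKO. Again no value overlapped (2.07 ± 0.33, limma adjusted p = 0.000641). The rule for naming genes by size required no overlap, so it adds no support for these genes. The same holds below for Ndufa4l2, Fgl1, Cyp2a5, Cyp1a1, Inmt and Moxd1.

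Ndufa4l2, a mitochondrial protein known as a hypoxia target, was also named by its size, with 4.58, 6.53, 6.63 and 6.26 TPM in FLOX and 11.7, 20.0, 22.5 and 16.7 TPM in HKO (1.39 ± 0.27, limma adjusted p = 0.00333). HKO replicate 1 was the lowest of its group and still above every FLOX sample. Ndrg1, a stress-responsive gene, rose from 11.8 ± 1.0 to 22.8 ± 1.1 TPM (0.90 ± 0.13), and Vegfa, the endothelial growth factor, from 58.7 ± 4.0 to 92.6 ± 5.0 TPM (0.65 ± 0.11, limma adjusted p = 0.000840). Along glycolysis Pfkl, the liver phosphofructokinase (0.72), Aldoa, an aldolase (0.29), Tpi1, triosephosphate isomerase (0.47), Pgk1, phosphoglycerate kinase (0.39), Pgam1 (0.24), Eno1, enolase (0.29), Pkm, the muscle-type pyruvate kinase (0.82), and Ldha, lactate dehydrogenase (0.52), all rose. So did Pdk1, which holds pyruvate back from mitochondria (0.71), and the oxygen sensors Egln1 (0.49) and Egln3 (0.83 ± 0.22, limma adjusted p = 0.0243). Hk2, Adm, P4ha1 and Pfkfb3 did not pass the threshold, with differences of 0.05, 0.01, 0.13 and 0.15. The count stayed between 16 and 19 when each vehicle sample was left out. The Egln3 call was lost with no filter and without replicate 1 or 2 of FLOX or replicate 2 or 3 of HKO.

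**Figure D2:**
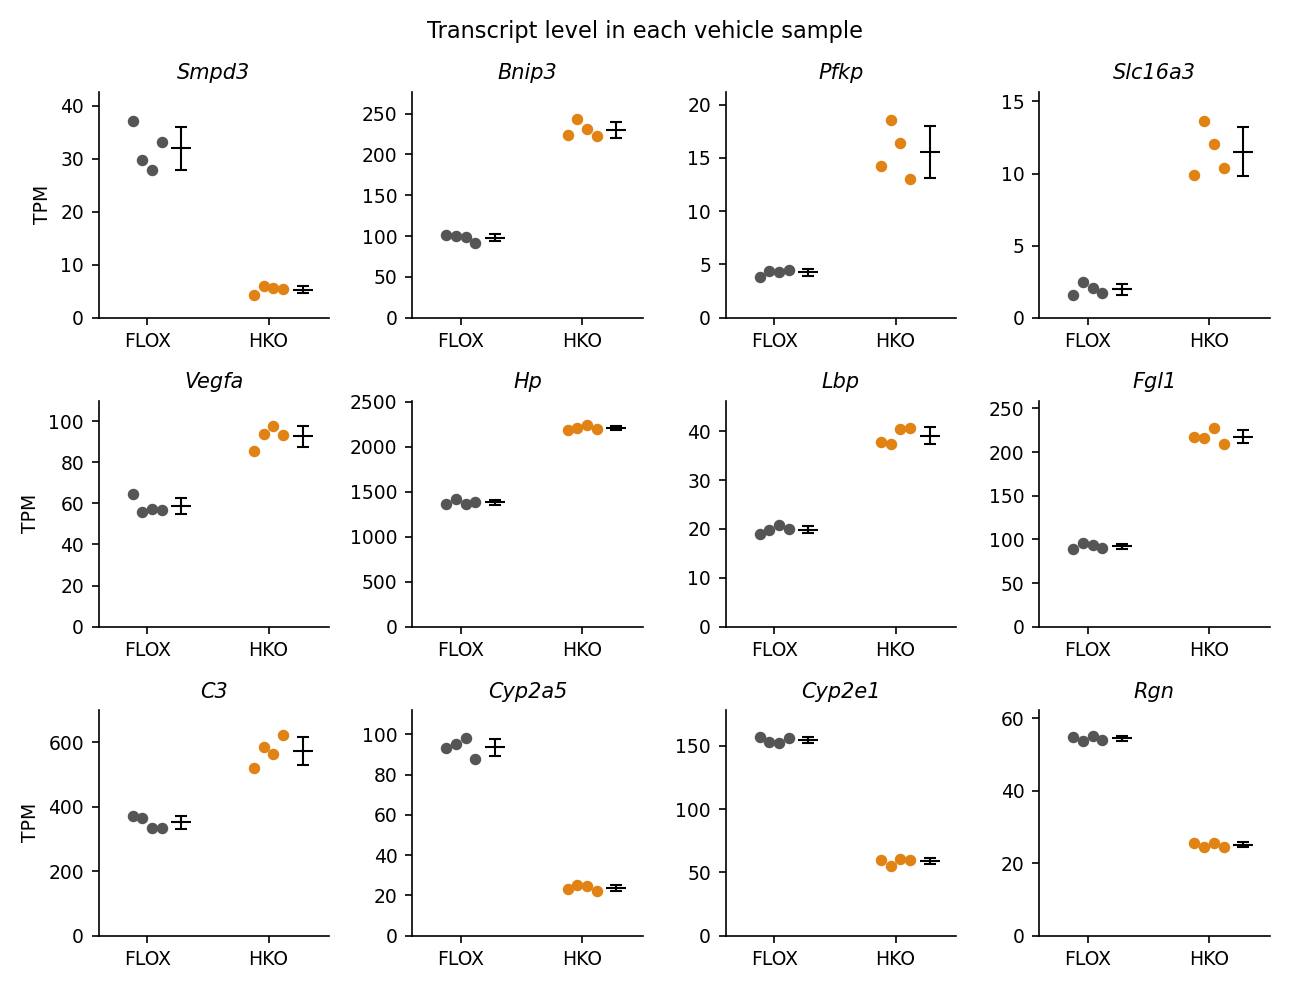
TPM of 12 genes in each vehicle sample, 4 FLOX (grey) and 4 HKO (orange), with the mean and SD of each group in black beside the points and the y axis from 0. In all 12 genes the groups are apart: Smpd3, Cyp2a5, Cyp2e1 and Rgn are lower in HKO, and the other 8 are higher.

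Acute phase proteins, which the liver secretes in inflammation, were higher in HKO cells: 15 of 23 tested members rose and 1 fell, with a median of 0.276. Haptoglobin (Hp), which binds free hemoglobin, stood at 1366, 1424, 1363 and 1384 TPM in the FLOX replicates and at 2183, 2210.2, 2237 and 2195 TPM in the HKO replicates. The 2 groups were tight and far apart, and the HKO mean was 1.59-fold the FLOX mean (0.67 ± 0.032, limma adjusted p = 1.2e-09). Lbp, the lipopolysaccharide binding protein, stood at 18.96, 19.7, 20.8 and 19.9 TPM in FLOX and at 37.8, 37.4, 40.5 and 40.8 TPM in HKO. Every HKO value was well above the FLOX range (0.94 ± 0.085, limma adjusted p = 1.83e-06). Steap4, a metalloreductase (0.63 ± 0.10), Hpx, the heme carrier hemopexin (0.63), the fibrinogen chain Fgg (0.43), Crp, the pentraxin C-reactive protein (0.38), and Itih4 (0.38) rose too. The members Saa1, Saa2 and Fgb, among the best known of the list, did not pass, at 0.04, 0.08 and 0.05. Hamp, the iron hormone hepcidin, was the 1 member that was lower, from 10780.0 ± 433 to 7465 ± 399.6 TPM (-0.53 ± 0.16, limma adjusted p = 0.0407). Its call was lost without any 1 of the 8 samples and with both rescalings, and Hamp2 is a close copy whose reads the counting could have split.

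Of the 18 genes of IL-6 and STAT3 signalling, the route that induces many acute phase genes, 2 rose and none fell. Fgl1, a secreted fibrinogen-like protein, stood at 89.1, 95.7, 93.4 and 90.2 TPM in FLOX and at 218, 216, 228 and 209 TPM in HKO. The HKO values were 2.36-fold higher by the means, with no overlap (1.23 ± 0.063, limma adjusted p = 3.27e-09). Socs3, the feedback inhibitor of this pathway, had 3.16 ± 0.43 TPM in FLOX and 4.22 ± 0.47 TPM in HKO (0.33 ± 0.096, limma adjusted p = 0.0359), a call lost in 9 of the 17 alternatives that tested this gene, 6 of them the removal of 1 sample (FLOX replicate 1, 2 or 3, HKO replicate 1, 3 or 4). The list's median was 0.151. Of the NF-kB, chemokine and cytokine list, 3 of 22 rose and none fell: the pattern recognition receptor Tlr2 (0.62 ± 0.10), the kinase Irak3 (0.51 ± 0.11) and the lipopolysaccharide co-receptor Cd14 (0.21 ± 0.048). Of 28 interferon-stimulated genes 2 rose, the GTPase Iigp1 (0.47 ± 0.10) and B2m, the light chain of MHC class I (0.16 ± 0.026). The share higher over all genes was 4.11%.

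Complement and coagulation factors, also secreted by hepatocytes, were higher for 21 of 37 tested members and lower for none, with a median of 0.218. C3, the central complement component, stood at 371, 366, 334 and 333 TPM in FLOX and at 519.98, 584, 563 and 621 TPM in HKO. The lowest HKO value was above the highest FLOX value by more than the range within FLOX (0.70 ± 0.056, limma adjusted p = 4.17e-07). Hc, complement component C5, rose from 51.3 ± 4.4 to 82.2 ± 3.6 TPM (0.67 ± 0.064). The members of the membrane attack complex C8a (0.43), C8b (0.35) and C9 (0.48) rose with them. Among coagulation factors the rises were smaller, with prothrombin (F2) at 0.24, F10 at 0.30 and plasminogen (Plg) at 0.32. The list counted 18 to 21 higher members when each vehicle sample was left out.

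The promoters of hemopexin and C3 are shown with the C/EBP core, TTGCNNAA on either strand, in capitals, since C/EBP factors are known to drive acute phase genes. They are the same 300-base windows of RefSeq on GRCm38.p6, Hpx at chr7:105600067-105600366 (minus strand) and C3 at chr17:57228087-57228386 (minus strand).
Hpx: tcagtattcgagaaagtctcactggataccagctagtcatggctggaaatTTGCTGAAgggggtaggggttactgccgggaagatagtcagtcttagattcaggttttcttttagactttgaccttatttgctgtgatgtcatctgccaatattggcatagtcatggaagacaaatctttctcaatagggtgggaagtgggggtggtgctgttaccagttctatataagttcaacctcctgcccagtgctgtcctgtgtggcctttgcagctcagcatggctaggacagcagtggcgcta
C3: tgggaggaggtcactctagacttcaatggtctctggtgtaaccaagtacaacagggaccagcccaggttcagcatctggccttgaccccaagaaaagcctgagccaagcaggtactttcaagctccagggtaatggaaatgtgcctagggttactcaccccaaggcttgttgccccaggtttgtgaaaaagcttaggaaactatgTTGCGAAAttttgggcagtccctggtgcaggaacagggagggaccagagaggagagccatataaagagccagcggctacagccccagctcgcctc

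Each window held 1 match. The core was in 11 of 19 promoters of the acute phase list (57.9%) and in 9 of 27 of the complement and coagulation list (33.3%), against 8.50% of the 8887 promoters of tested genes. It was also in 5 of 24 promoters of the P450 list (20.8%) and 3 of 12 pericentral ones (25.0%). In both of these lists, described below, more members fell than rose. The hypoxia list had it in 1 of 23 (4.35%) and the NRF2 list in 1 of 25 (4.0%). The STAT core TTCNNNGAA was in 6 of 19 (31.6%) of the acute phase list and 5 of 27 (18.5%) of the complement and coagulation list, against 6.86%. It was in none of the P450, pericentral and hypoxia promoters and in 2 of 25 of the NRF2 list (8.0%). These shares describe letters in a window, and base composition was not matched between the sets. The relation of a match to the size of a gene's difference was not tested.

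Pericentral genes, those of hepatocytes around the central vein, were lower in HKO cells for 11 of 15 tested members and higher for none, with a median of -0.506. Cyp2a5, a coumarin hydroxylase, stood at 93.2, 95.3, 98.1 and 87.9 TPM in FLOX and at 23.1, 25.3, 24.9 and 22.2 TPM in HKO. The mean in HKO was 25.5% of that in FLOX, and no values overlapped (-1.93 ± 0.055, limma adjusted p = 4.97e-12). Cyp2e1, the ethanol-oxidising P450, stood at 157, 153, 152 and 157 TPM in FLOX and at 59.9, 55.2, 60.6 and 59.6 TPM in HKO. The values were tight in both groups and HKO held on average 38.0% of the FLOX level (-1.38 ± 0.063, limma adjusted p = 8.85e-10). Rgn, the lactonase regucalcin, fell from 54.5 ± 0.65 to 25.1 ± 0.66 TPM (-1.09 ± 0.042) and Lect2, a secreted protein, from 57.9 ± 1.9 to 24.6 ± 1.2 TPM (-1.20 ± 0.081). Oat, an ornithine aminotransferase (-0.51), and Gulo, the last enzyme of vitamin C synthesis (-0.55), fell as well. Glul, the glutamine synthetase of the last cell layer, fell from 23.9 ± 1.9 to 19 ± 0.85 TPM (-0.32 ± 0.077, limma adjusted p = 0.0144). Znrf3 and Rnf43, feedback genes of the Wnt pathway that sets this zone, did not pass, at -0.08 and -0.02. The count was 10 or 11 when each vehicle sample was left out.

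Urea cycle and periportal genes, those of hepatocytes around the portal vein, were higher for 9 of 20 tested members and lower for none, with a median of 0.199. Hsd17b13, a lipid droplet enzyme, stood at 162, 173, 176 and 169 TPM in FLOX and at 246, 247, 263 and 245 TPM in HKO, with no overlap (0.56 ± 0.050, limma adjusted p = 1.83e-06). Ctsc, a lysosomal protease, rose from 36.6 ± 1.4 to 51.8 ± 1.4 TPM (0.49 ± 0.047). Cps1, which starts the urea cycle, had 34.2 ± 3.5 TPM in FLOX and 45.6 ± 4.1 TPM in HKO (0.41 ± 0.10, limma adjusted p = 0.0182), a call lost without replicate 2 or 3 of either genotype. The other urea cycle enzymes did not pass, with Otc at 0.03, Ass1 at 0.05, Asl at -0.02 and Arg1 at 0.13. The count fell to 5 without HKO replicate 3, and to 3 with the replicate number as a block in the 8 vehicle samples.

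**Figure D3:**
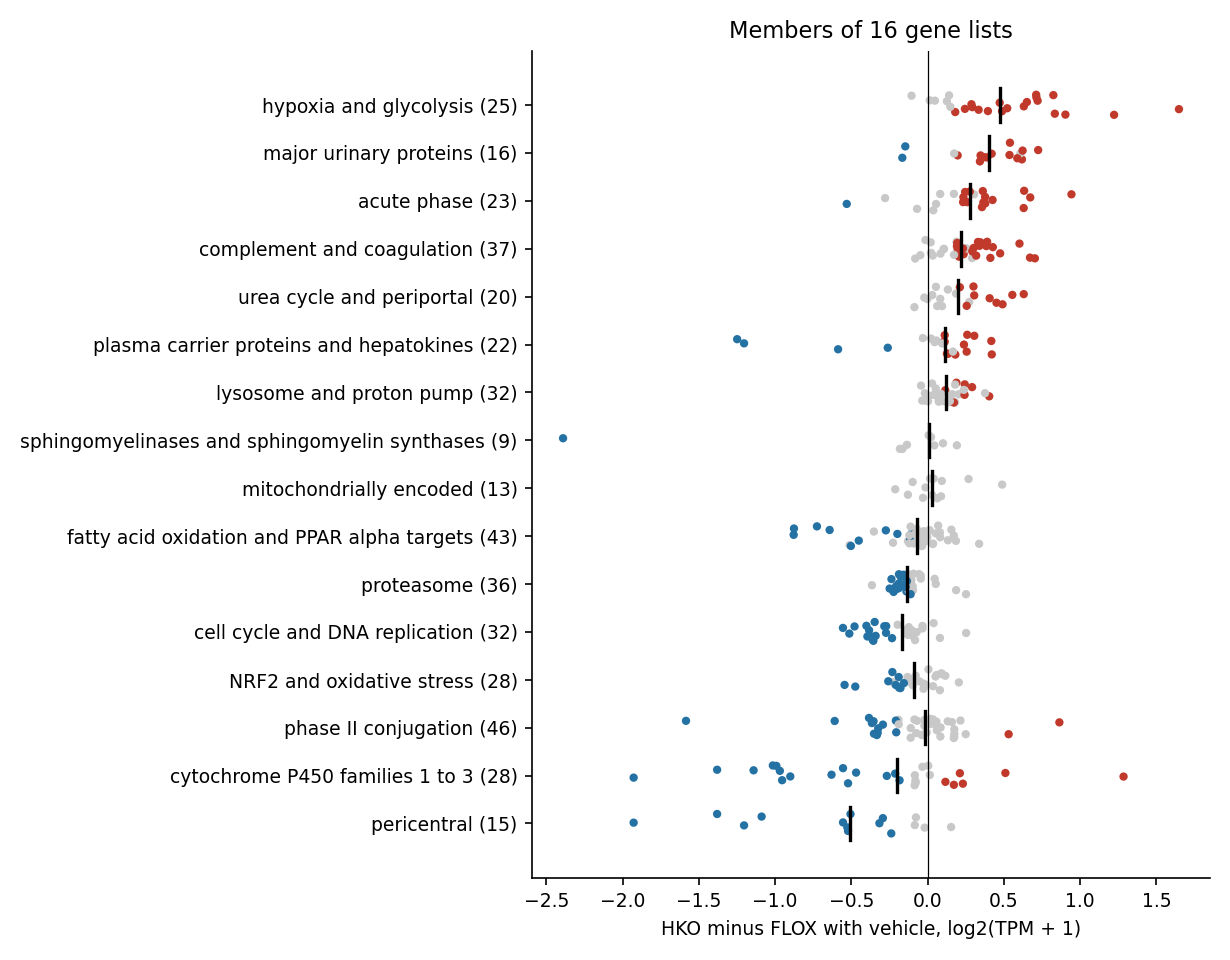
Each point is a tested member of 1 of 16 gene lists (number of members in parentheses), placed by its difference HKO minus FLOX with vehicle on the log2(TPM + 1) scale, with random vertical jitter. Red and blue points passed the threshold upward and downward, grey points did not, and black bars are the list medians, which run from -0.506 for pericentral genes to 0.472 for hypoxia and glycolysis.

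Cytochromes P450 of families 1 to 3, which oxidise drugs and other foreign compounds, were lower for 15 of 28 tested members and higher for 6, with a median of -0.199. Cyp2a5 and Cyp2e1, given above as pericentral, are also on this list, so the counts of both lists share members. The falls included the Cyp2c enzymes Cyp2c29, from 65.9 ± 1.2 to 29.4 ± 1.8 TPM (-1.14 ± 0.046, limma adjusted p = 2.39e-10), Cyp2c50 (-1.02), Cyp2c54 (-0.99) and Cyp2c37 (-0.95). Several of these are close copies, so the share of each is uncertain. Cyp3a11, the main mouse counterpart of a broad drug-metabolising P450, fell from 285 ± 7.5 to 152 ± 1.9 TPM (-0.90 ± 0.068), and Por, the reductase that feeds electrons to all of them, stood at -0.21, a call lost with quantile normalization. Cyp1a1 went the other way, with 6.44, 4.97, 6.26 and 5.49 TPM in FLOX and 14.5, 16.9, 15.5 and 15.04 TPM in HKO (1.28 ± 0.29, limma adjusted p = 0.00858). All HKO values were above all FLOX values, while Cyp1a2, another target of the same aryl hydrocarbon receptor, fell from 48.6 ± 2.5 to 33.5 ± 0.96 TPM (-0.52 ± 0.046).

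Phase II enzymes, which conjugate the products, were lower for 12 of 46 tested members and higher for 2, with a median of -0.020 close to that of all genes. Inmt, an amine N-methyltransferase, stood at 30.2, 25.4, 26.5 and 28.3 TPM in FLOX and at 9.79, 8.81, 7.53 and 8.10 TPM in HKO. The mean in HKO was 31.0% of that in FLOX, and no values overlapped (-1.58 ± 0.096, limma adjusted p = 2.19e-08). Ugt2b1, a glucuronosyltransferase, fell by 0.61 on the log2 scale, and Ugt1a9 rose from 9.03 ± 0.88 to 17.2 ± 1.3 TPM (0.86 ± 0.085). The glutathione transferases Gstm1 (-0.35), Gstm3 (-0.35), Gsta2 (-0.37) and Gsta1 (-0.29) fell together. Among 28 tested NRF2 targets and antioxidant genes 9 were lower and none higher, with the quinone reductase Nqo1 going from 14.3 ± 0.50 to 10 ± 0.41 TPM (-0.47 ± 0.061) and the pentose phosphate enzyme Taldo1 from 266 ± 1.5 to 222 ± 3.4 TPM (-0.26 ± 0.026). Median-ratio scaling kept 5 of these 9, and with either rescaling 1 gene of the list was higher.

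Of the genes of fatty acid oxidation and PPAR alpha targets, 10 of 43 were lower and none higher, with a median of -0.0721. Acaa1b, a peroxisomal thiolase, stood at 51.9, 48.1, 48.5 and 49.5 TPM in FLOX and at 27.2, 26.4, 26.6 and 25.6 TPM in HKO. The groups were far apart (-0.88 ± 0.068, limma adjusted p = 3.55e-07). Cyp4a14, a fatty acid hydroxylase (-0.88 ± 0.087), and Angptl4, an inhibitor of lipoprotein lipase (122 ± 7.7 to 73.2 ± 4.3 TPM, -0.73 ± 0.052), fell too. Many enzymes of the oxidation steps themselves did not pass, among them Cpt1a (0.07), Hadha (0.01) and Acadm (0.16), and the receptor Ppara stood at 0.13. Of 14 genes of fatty acid uptake and binding, 3 fell and 1 rose: the binding proteins Fabp1 (895 ± 31 to 632 ± 36 TPM, -0.50 ± 0.060) and Fabp4 (-0.43 ± 0.063) and the receptor Cd36 (-0.55 ± 0.10) were lower. The 1 rise was lost without any 1 sample other than FLOX replicate 1.

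Other lipid genes moved both ways. Of 19 lipid droplet genes 5 fell and 3 rose: Fitm1, which partitions triglyceride into droplets, went from 4.98 ± 0.44 to 1.84 ± 0.29 TPM (-1.08 ± 0.11), Cidec and Plin2, coat proteins, fell by 0.30 and 0.25 on the log2 scale, and Hsd17b13 rose as given above. Of 25 genes of lipogenesis 4 rose and 1 fell, led by Scd2, a stearoyl-CoA desaturase, with 8.17, 6.76, 5.92 and 6.99 TPM in FLOX and 13.6, 16.3, 14.8 and 14.7 TPM in HKO (1.00 ± 0.11, limma adjusted p = 1.72e-05). The 4 rises became 2 without FLOX replicate 3, FLOX replicate 4 or HKO replicate 2. Of 25 apolipoprotein genes 4 rose and 4 fell: Apoa4 rose from 1073 ± 34 to 1574 ± 93 TPM (0.55 ± 0.061), and Pltp, the phospholipid transfer protein, fell from 4.77 ± 0.37 to 1.49 ± 0.34 TPM (-1.22 ± 0.10, limma adjusted p = 9.95e-07). The 4 falls became 1 with median-ratio scaling and 2 without FLOX replicate 3 or 4, or HKO replicate 2 or 3. Of 24 cholesterol synthesis genes 1 rose and 1 fell, the rise lost without any 1 sample other than FLOX replicate 1 and the fall without any 1 other than FLOX replicate 3 or HKO replicate 4.

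Genes of glucose metabolism were split: 5 of 20 rose and 3 fell. Khk, ketohexokinase, stood at 247, 241, 243 and 254 TPM in FLOX and at 188, 178, 183 and 178 TPM in HKO, with no overlap (-0.44 ± 0.032, limma adjusted p = 1.71e-07). The hepatocyte glucose transporter Slc2a2 stood at -0.36 ± 0.099 (limma adjusted p = 0.0274), a call lost with both rescalings and without any 1 of the FLOX replicates or HKO replicate 2 or 4. The 5 rises became 2 without FLOX replicate 4 or HKO replicate 3, and 3 without FLOX replicate 2 or 3 or HKO replicate 2. Among IGF binding proteins Igfbp2 fell from 138 ± 3.3 to 62.7 ± 3.4 TPM (-1.13 ± 0.051, limma adjusted p = 8.85e-10), Igfbp3 fell by 0.58 and Igfbp1 rose from 324 ± 14 to 485 ± 12 TPM (0.58 ± 0.033).

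Among nuclear receptors and hepatocyte transcription factors 3 of 30 fell and none rose, near the shares over all genes (7.56% lower and 4.11% higher). Pparg, a receptor that promotes fat storage, stood at 6.83, 9.83, 6.32 and 6.65 TPM in FLOX and at 4.33, 3.37, 3.25 and 3.16 TPM in HKO (-0.88 ± 0.12, limma adjusted p = 0.000148). FLOX replicate 2 was the highest and the groups did not overlap. Nr1h4, the bile acid receptor FXR, was also lower (-0.45 ± 0.070). Of 16 bile acid genes 4 fell and 3 rose, with the bile salt exporter Abcb11 at -0.33 ± 0.077 and the phospholipid exporter Abcb4 at 0.36 ± 0.080. Of 33 genes of amino acid breakdown 7 rose and 2 fell: Bhmt, which remethylates homocysteine, rose from 28.2 ± 1.5 to 49.4 ± 1.5 TPM (0.79 ± 0.055), and Hpd, a tyrosine-degrading enzyme, fell from 70.9 ± 4.0 to 48.9 ± 3.5 TPM (-0.53 ± 0.088). The 7 rises became 4 without HKO replicate 3. With the replicate number as a block in the 8 vehicle samples they became 3, and 1 bile acid gene was lower and none higher.

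Cell cycle and DNA replication genes were lower for 15 of 32 tested members and higher for none, with a median of -0.169. Rrm2, a subunit of ribonucleotide reductase, stood at 34.8, 32.7, 31.5 and 36.2 TPM in FLOX and at 22.2, 23.0, 24.9 and 25.6 TPM in HKO, with no overlap (-0.48 ± 0.067, limma adjusted p = 0.000173). Ccnd1, the cyclin of the G1 phase, fell from 4.04 ± 0.24 to 2.54 ± 0.31 TPM (-0.51 ± 0.11), and Gins2, a part of the replicative helicase, from 8.14 ± 1.6 to 5.15 ± 0.48 TPM (-0.56 ± 0.13). The other helicase subunits Mcm3 (-0.40), Mcm4 (-0.38), Mcm5 (-0.34), Mcm6 (-0.38) and Mcm7 (-0.35) fell together. The 15 lower members of the list became 6 with the replicate number as a block in the 8 vehicle samples. Of the p53 and apoptosis list 7 of 25 fell and none rose, with Phlda3, a p53 target, at -0.45 ± 0.077. These 7 became 4 without FLOX replicate 1, FLOX replicate 4, HKO replicate 1 or HKO replicate 4, and 4 with quantile normalization. With the same block they became 2.

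Proteasome subunits were lower by small amounts, for 21 of 36 tested members, with none higher on the TPM scale and a median of -0.139. Psma7, a core subunit, stood at 290.4, 278, 306 and 299.7 TPM in FLOX and at 253, 250.2, 240.5 and 251 TPM in HKO, with no overlap (-0.24 ± 0.037, limma adjusted p = 0.000476). This count depended on how the samples were centred: with median-ratio scaling 6 members were lower and 2 higher, and with quantile normalization 12 and 3. With the replicate number as a block in the 8 vehicle samples 5 were lower. Of 18 heat shock genes 4 were lower, among them Hspa8, the constitutive cytosolic chaperone, at -0.21 ± 0.028. None of the 13 mitochondrially encoded genes tested passed the threshold by limma. With the genes split into 4 equal bins by transcript length, the share lower in HKO was 8.68%, 10.3%, 7.93% and 3.46% from the shortest to the longest bin, and the share higher was 3.42%, 4.47%, 5.22% and 3.35%. The part of transcript length in these small differences was not tested.

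Genes of cell shape and of biliary character changed without a common direction. Of the list of keratins and dedifferentiation markers 6 of 21 rose and 5 fell. Spp1, osteopontin, stood at 147, 143, 152 and 156 TPM in FLOX and at 265, 282, 263 and 287 TPM in HKO, with no overlap (0.87 ± 0.068, limma adjusted p = 3.63e-07). Tff1, a mucosal trefoil peptide, went the other way, with 16.1, 19.4, 19.1 and 18.3 TPM in FLOX and 6.04, 7.30, 7.18 and 4.49 TPM in HKO (-1.42 ± 0.15, limma adjusted p = 1.28e-05). Krt7 fell (-0.61 ± 0.10, a call lost with a pseudocount of 0.1), while Krt19, also a biliary keratin, stood at 0.43 ± 0.12 (limma adjusted p = 0.0319), a call lost with quantile normalization and without FLOX replicate 1 or 4 or HKO replicate 1, 2 or 4. The 6 rises became 2 without HKO replicate 2 and 3 without FLOX replicate 3, FLOX replicate 4 or HKO replicate 3, and the 5 falls became 3 with either rescaling.

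Of 23 actin and SRF target genes 2 rose and 3 fell, with Acta1, skeletal muscle actin, from 1.59 ± 0.51 to 4.5 ± 0.36 TPM (1.11 ± 0.18), and Tagln, an actin-binding protein, from 56.5 ± 3.9 to 96.8 ± 6.7 TPM (0.77 ± 0.15). The 3 falls became 1 without FLOX replicate 4, and the 2 rises became 4 with either rescaling. Over all genes 7.56% fell and 4.11% rose. Of the 8 genes of caveolae, the small pits of the plasma membrane that are rich in sphingomyelin, 2 rose and none fell: the coat proteins Cavin1, from 3.89 ± 0.43 to 8.03 ± 0.49 TPM (0.89 ± 0.074, limma adjusted p = 8.25e-07), and Cavin3 (0.46 ± 0.10). Of 24 matrix and integrin genes 4 rose and none fell, among them Lgals3, galectin 3 (0.55 ± 0.058), the collagen chain Col4a2 (0.46 ± 0.085) and fibronectin, Fn1 (0.43 ± 0.089). Of 18 genes of extracellular vesicles, whose release is known to involve neutral sphingomyelinase 2, 2 rose and none fell, with a median of -0.011. The share higher over all genes was 4.11%. The 2 rises became 1 without FLOX replicate 3 or HKO replicate 1, 3 or 4, and 4 with median-ratio scaling. Of 32 lysosome genes 8 rose and none fell. The lysosome count was 5 without FLOX replicate 3, HKO replicate 2 or HKO replicate 3, and 14 with median-ratio scaling or sample weights. It was 2 with the replicate number as a block in the 8 vehicle samples.

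Secreted proteins outside inflammation also differed. Of 16 major urinary protein genes, pheromone carriers made in the liver, 12 were higher and 2 lower, with a median of 0.405, and the 2 lower calls were lost with both rescalings and became 1 without HKO replicate 4. Mup11 stood at 2782, 2941, 3077 and 3003 TPM in FLOX and at 5142, 4758, 4783 and 4818 TPM in HKO, with no overlap (0.72 ± 0.041, limma adjusted p = 1.09e-08). These genes are near-identical copies, so the counting could have split reads between them and the value of each is uncertain. Of 22 plasma carriers and hepatokines 12 rose and 4 fell: transferrin (Trf) and fetuin-A (Ahsg) both stood at 0.42, and Serpina7, the thyroxine carrier, fell from 11.7 ± 1.8 to 4.42 ± 1.2 TPM (-1.25 ± 0.20, limma adjusted p = 0.000497). The hormone Fgf21 fell from 22.4 ± 1.8 to 14.5 ± 0.66 TPM (-0.59 ± 0.10). The 12 rises became 7 with median-ratio scaling or with no variance trend.

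Some of the largest differences belonged to none of the groups described so far. Moxd1, a monooxygenase-like protein, stood at 0.43, 0.36, 0.32 and 0.33 TPM in FLOX and at 5.83, 6.52, 6.72 and 5.88 TPM in HKO. It was below the filter in every FLOX sample and above it in every HKO sample (2.41 ± 0.15, limma adjusted p = 2.33e-08). Hsd3b1, a steroid dehydrogenase, showed the opposite, with 5.24, 5.15, 6.20 and 5.89 TPM in FLOX and 0.32, 0.29, 0.77 and 0.48 TPM in HKO (-2.18 ± 0.12, limma adjusted p = 1.09e-08). Moxd1 passed the filter through HKO samples and Hsd3b1 through FLOX samples, so which group lies above the filter adds no support. Both calls were kept in all 18 alternatives, no filter among them. Prelid2, which resembles mitochondrial lipid transfer proteins, rose from 5.86 ± 1.7 to 17.2 ± 0.57 TPM (1.44 ± 0.16), Acnat2, an acyl-CoA amino acid transferase, from 15.1 ± 1.6 to 36.1 ± 2.6 TPM (1.21 ± 0.093), and Cyp17a1, a steroidogenic P450, from 2.75 ± 1.2 to 7.69 ± 2.7 TPM (1.22 ± 0.30), a call lost without HKO replicate 3. Dnah7a, an axonemal dynein chain, varied widely, with 9.05, 24.0, 28.7 and 14.7 TPM in FLOX and 2.73, 5.97, 3.33 and 5.58 TPM in HKO (-1.83 ± 0.34, limma adjusted p = 0.00209). Hsd17b6, a steroid and retinol dehydrogenase, fell from 44.8 ± 1.3 to 21.8 ± 1.2 TPM (-1.01 ± 0.073).

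The same genotype contrast was also measured in the 8 samples with palmitic acid, which share no sample with the vehicle comparison but carry the same replicate numbers in their titles. Whether both sets came from the same mice is not known, so they may not be independent. There 1155 genes (9.74%) passed the threshold. Of the 1384 genes called with vehicle, 1297 (93.7%) had the same sign with palmitic acid and 662 (47.8%) were called in the same direction, which is 57.3% of the calls with palmitic acid, and 3 were called in the opposite one. The share of same signs over all genes tested is not given here, so the 93.7% has no baseline. The 24 genes named by their size with vehicle all kept their sign, and 19 of them were called in the same direction with palmitic acid. Moxd1 stood at 2.41 with vehicle and 2.26 with palmitic acid, Slc16a3 at 2.07 and 2.01, Pfkp at 1.65 and 1.75, Lbp at 0.94 and 0.87, C3 at 0.70 and 0.79 and Inmt at -1.58 and -1.60. The 5 of the 24 that were not called with palmitic acid were Dnah7a (-1.83 and -0.68), Defb8 (-2.08 and -1.06), Serpina7 (-1.25 and -0.55), Cyp17a1 (1.22 and 0.80) and Rpph1, the RNA of ribonuclease P (-1.29 and -0.78). The vehicle call of Rpph1 was lost without FLOX replicate 2, 3 or 4 or HKO replicate 1 or 2. For none of these 5 did the difference between the treatments pass the threshold (limma adjusted p from 0.532 to 0.892). The counts of the lists were 16 higher of 25 for hypoxia and glycolysis with palmitic acid, 18 of 37 for complement and coagulation, 13 of 23 for acute phase and 8 lower of 15 for pericentral genes.

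The difference between the 2 genotype effects was tested itself and passed the threshold for 23 genes (0.194%), of which 8 were called with vehicle. It passed for 19 genes without HKO replicate 4, and for 8 to 12 without any other 1 of the vehicle samples. Cyp2a5 was reduced less with palmitic acid, from 54.7 ± 3.4 TPM in FLOX to 20.1 ± 0.74 TPM in HKO (-1.40 ± 0.055), and the 2 effects differed by 0.53 ± 0.077 (limma adjusted p = 0.0115). Cyp2c29 did likewise, at -1.14 with vehicle and -0.77 with palmitic acid (limma adjusted p = 0.0344 for the difference). Igfbp1 was raised more with palmitic acid, at 0.58 and 0.91 (limma adjusted p = 0.0115). Ifrd1, an early-response coregulator, was lower in HKO with vehicle (-0.26 ± 0.064) and higher with palmitic acid (0.26 ± 0.064), and Gckr, the regulator of glucokinase, was higher with vehicle (0.21 ± 0.060) and lower with palmitic acid (-0.25 ± 0.060). The vehicle calls of Ifrd1 and Gckr were lost without HKO replicate 2, that of Ifrd1 also with both rescalings, and that of Gckr also without HKO replicate 3 or FLOX replicate 2 or 4. Hspa8, lower with vehicle, stood at 0.02 ± 0.028 with palmitic acid. Trim27 and Cpe were the other 2 of the 8, each lower with vehicle.

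**Figure D4:**
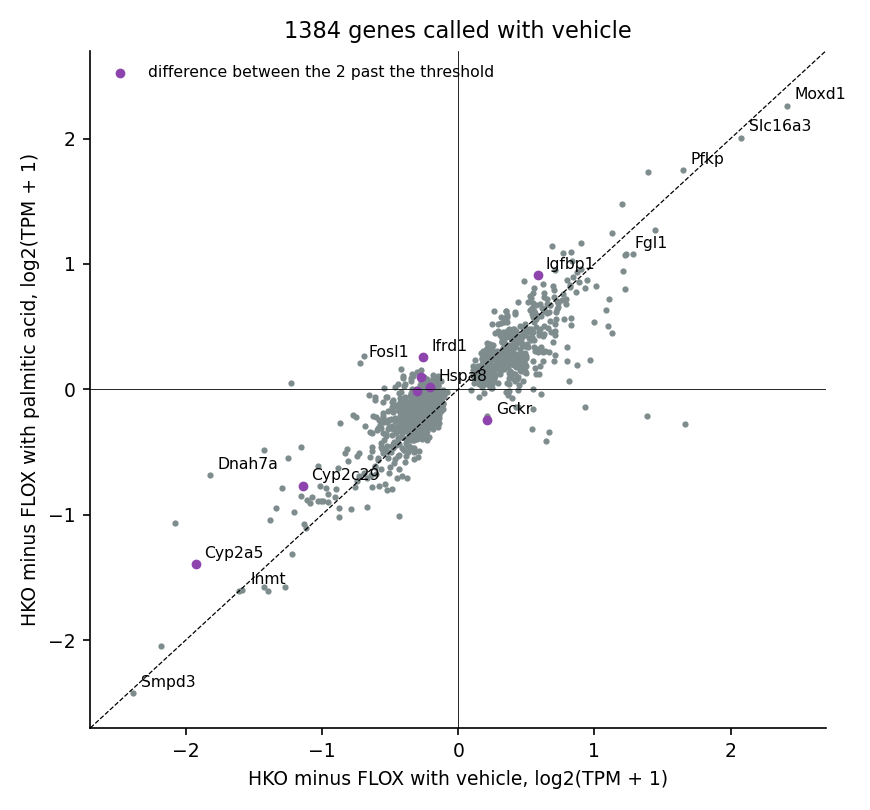
Each point is 1 of the 1384 genes called with vehicle, with the difference HKO minus FLOX with vehicle on the x axis and with palmitic acid on the y axis, both on the log2(TPM + 1) scale. Most points lie in the same quadrant on both axes (1297 of 1384). The dashed line marks equal differences, and purple points are the 8 genes whose 2 differences were themselves apart at a limma adjusted p below 0.05.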

How the data were processed

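TPM values were deposited by the authors, who made them from stranded total RNA libraries with RSEM 1.3.3, per the submitters' processing notes, and gave them with 2 decimals per Ensembl gene ID. The notes list a human genome build for these mouse genes, so coordinates were read only for RefSeq promoters. Neither aligner nor annotation is given in the sources used here. Since TPM holds no read depth, the depth per sample is unknown and counting errors could not be computed. Precision is the spread among samples: an SD is that of 4 samples, and an SE comes from the fit of all 16. Symbols matched 52083 of 55416 IDs (94.0%).

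Genes with at least 1 TPM in at least 4 of 16 samples entered limma 3.58.1 (R 4.3.3) as log2(TPM + 1), a scale that understates the change of low genes. One model held all 16 samples, with 4 group means and a trend of the variance with the mean. Two-sided p-values received the Benjamini-Hochberg adjustment over all 11858 genes, with a threshold of 0.05. The members and the 52 gene lists (1167 genes, 1008 tested) were chosen with earlier results of these data known. Some genes are on more than 1 list, so the counts of different lists are not separate. Named were Smpd3, up to 12 genes per direction with the largest differences (called, no overlap, at least 5 TPM in the higher group), up to 3 called members per list and every tested sphingomyelinase and sphingomyelin synthase. The text leaves some out, and some genes are not reported here. List members given by their log2 difference alone, and Rgn, Glul, Cps1, Cyp2c29, Cyp3a11, Cyp1a2, Egln3, Vegfa, Hif1a, Epas1, Slc2a2, Gckr, Ifrd1, Trim27 and Cpe, stand outside the rule, chosen after their values were seen.

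The replicate numbers were not used as pairs. The test was tried on simulated data. Alternatives were another pseudocount (0.1), median-ratio scaling, quantile normalization, a filter of 5 TPM or none, no trend, the 8 vehicle samples alone, replicate blocks, sample weights and leaving out each vehicle sample.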

Additional observations from a re-analysis of the deposited data

Results flagged for a closer look

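For 8 named genes the genotype effect differed between the treatments by a test of the difference itself, given as the effect with palmitic acid minus that with vehicle: 0.53 for Cyp2a5, 0.37 for Cyp2c29, 0.23 for Hspa8, 0.33 for Igfbp1, -0.46 for Gckr, 0.52 for Ifrd1, 0.29 for Cpe and 0.37 for Trim27 on the log2(TPM + 1) scale (limma adjusted p from 0.0115 to 0.0386). When each vehicle sample was left out in turn, 8 to 19 genes passed this test in place of 23.

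In 340 groups of 4 values of the named genes, 16 had a sample far from the other 3 by Dixon's criterion, where chance flags about 1 group in 20. In FLOX these were Vegfa in replicate 1 (64.6 TPM, the others 55.9 to 57.2), Igfbp3 in replicate 1 (51.7 TPM, the others 45.3 to 46.4), Fabp4 in replicate 2 (186 TPM, the others 196 to 198), Pparg in replicate 2 (9.83 TPM, the others 6.32 to 6.83), Cyp1a2 in replicate 3 (44.9 TPM, the others at least 49.4), and in replicate 4 Smpdl3b (3.08 TPM, the others at most 2.61), Apoa4 (1123 TPM, the others at most 1060), Fgb (681 TPM, the others 668 to 670) and Rnf43 (1.74 TPM, the others at most 1.02). In HKO they were Mup11 (5142 TPM, the others at most 4818) and Cidec (26.4 TPM, the others at least 33.6) in replicate 1, Gins2 (4.43 TPM, the others at least 5.34) and Pfkl (34.0 TPM, the others at most 31.3) in replicate 2, and Hsd17b13 (263 TPM, the others at most 247), F10 (93.8 TPM, the others at most 84.8) and Cd68 (68.0 TPM, the others at most 61.2) in replicate 3.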

How the results depend on the processing

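Under the 18 alternatives none of the 142 called genes named singly changed sign. Of the 134 tested in all 18, 109 kept their call in each. The filter of 5 TPM left out the other 8, of which 3 kept their call in the remaining 17. With the replicate number as a block in the 8 vehicle samples, 227 genes were higher and 322 lower in HKO, in place of 487 and 897, and 525 of these 549 were among the main calls in the same direction; 13 of the 142 genes lost their call in that fit alone. In that fit the higher members numbered 17 for hypoxia and glycolysis, 13 for acute phase and 15 for complement and coagulation. The lower members numbered 8 for pericentral genes and 14 for P450. Drops of other lists are given above for periportal, amino acid, bile acid, cell cycle, p53, proteasome and lysosome genes. The block as a random term left 8 genes in which the 2 genotype effects differed, in place of 23. Same-numbered FLOX and HKO samples did not deviate together from their group means (r over genes from -0.112 to -0.0709 in the 4 pairs). An r over all genes cannot exclude a shared day or culture that moved few of them, and the labels give neither. Leaving out each vehicle sample gave 321 to 505 higher genes, the 321 without HKO replicate 2, 635 to 737 lower genes, a Smpd3 difference of -2.45 to -2.31 and 8 to 19 genes in which the genotype effects differed. Median-ratio scaling gave 513 lower genes and 9 such differences, sample weights 792 higher genes and 40 differences, and the fit with no trend 5 differences. The share of calls higher was 40.7% without FLOX replicate 1. Values in TPM carry no depth, so the depth that limits low genes is unknown.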

Other observations

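Further groups showed small counts of calls in both directions, where 7.56% of all genes tested fell and 4.11% rose. Of 24 steroid dehydrogenases and reductases 3 rose and 3 fell, the lowest difference being -1.01. Hsd3b1, at -2.18, is not on this list. Akr1c6, a hydroxysteroid dehydrogenase, went from 10.7 ± 1.3 to 5.7 ± 1.6 TPM (mean ± SD, n = 4 each, log2 difference -0.83 ± 0.13). Dhrs9, a retinol and steroid dehydrogenase, went from 4.77 ± 0.29 to 8.05 ± 0.64 TPM (0.65 ± 0.12). Of 30 heme and iron genes 6 fell and 2 rose, with the biliverdin reductase Blvrb from 169 ± 6.8 to 121 ± 7.3 TPM (-0.48 ± 0.039, limma adjusted p = 6.47e-07), and the 6 became 2 with median-ratio scaling. The 2 rises became 1 without FLOX replicate 2, 3 or 4 or HKO replicate 1, 2 or 3, and 4 with median-ratio scaling. Of 23 AP-1 and immediate early genes 1 rose and 1 fell: Fosl1, a partner of Jun proteins, went from 22.3 ± 5.0 to 12.9 ± 1.5 TPM with vehicle (-0.72 ± 0.13) and stood at 0.21 with palmitic acid, and the difference between the 2 effects missed the threshold (limma adjusted p = 0.0547). Of 23 genes of the unfolded protein response 2 rose, of 23 genes of integrated stress 1 rose and 3 fell, and of 18 clock genes 3 fell. The 2 rises of the unfolded protein response became 1 without FLOX replicate 1, 3 or 4, the 1 rise of integrated stress became 2 without FLOX replicate 1, and the 3 clock falls became 1 without FLOX replicate 2 or HKO replicate 1. Obp2a, an odorant-binding lipocalin, rose from 4.56 ± 0.31 to 11.2 ± 1.3 TPM (1.13 ± 0.18), and Defb8, a defensin, had 5.90, 9.54, 9.86 and 12.7 TPM in FLOX and 2.60, 0, 2.60 and 1.64 TPM in HKO (-2.08 ± 0.45, limma adjusted p = 0.00704).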
